A study of Mus musculus with 8 samples.

Results

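The genes for matrix metalloproteases and their inhibitors were followed in 8 mouse tumour libraries. They were taken as every protein-coding gene of GENCODE M21 whose symbol begins with Mmp, Adam, Adamts, Adamtsl or Timp followed by a digit, which gave 83 genes among the 56691 gene identifiers of the count table. There were 22 Mmp, 33 Adam, 19 Adamts, 5 Adamtsl and 4 Timp genes. The tumours were formed by MC38 cells, a mouse colon adenocarcinoma line, in C57BL/6J mice with their own immune system. Mice of the treated group, with 4 libraries, were dosed with 10 mg/kg of C26 every second day over 2 weeks, per the labels, and the other 4 libraries came from control mice whose treatment is named only as control. C26 is a code name and nothing more is said of it in the sources used. All tumours come from 1 cell line. Whether each library came from a separate mouse is not given in the sources used here, so p-values measure the spread between these libraries.

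Matrix metalloproteases (MMPs) are zinc-dependent enzymes that cut collagens, laminins and other matrix proteins, and most are made as inactive precursors. Membrane-bound ADAM proteases release growth factors, cytokines and receptors from cell surfaces, and secreted ADAMTS proteases cut proteoglycans and trim procollagens. Tissue inhibitors of metalloproteases (TIMPs) bind the catalytic site of these enzymes, and in tumours much of the matrix-cutting activity is known to come from fibroblasts and macrophages as well as from cancer cells.

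Libraries held 17075176 to 21517425 counts. Of 15755 genes that passed a filter on low counts, 1223 (7.76%) were past an adjusted p of 0.05 in edgeR's quasi-likelihood test. Of these 1223, 46.9% were higher in C26, against 78.7% of 1949 when libraries were scaled by their total counts, 68.0% of 122 with skeletal muscle level as a covariate and 30.2% of 629 when length and GC content of transcripts were corrected for. Of 12 epithelial and colon markers 10 were under the filter, with Cdx2 and Cldn4 at 0 counts, and their summed level was 5.5 to 8.91 CPM (counts scaled to library size, with TMM factors) in C26 and 7.41 to 10.1 CPM in control libraries. The skeletal muscle markers summed to 52.9, 765, 170 and 30.1 CPM in C26 libraries 1 to 4 and to 12.2, 50.1, 12 and 11.5 CPM in control libraries 1 to 4. C26 libraries 2 and 3 thus stood apart in muscle RNA, and values without them are given for the proteases, the inhibitors and the partner lists where they change a call. The muscle covariate, a mean log2 CPM, was 1.80, 5.46, 3.45 and 0.98 in C26 libraries 1 to 4. In control libraries 1 to 4 it was -1.19, 1.42, -1.06 and -1.08. It largely followed the group, so fits with it cannot tell muscle RNA and treatment apart.

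Of the 83 genes, 42 passed the filter (at least 0.516 CPM, or 10 counts in a library of median depth, in 4 libraries). The other 41 stayed under it, and no library held more than 1.0 CPM of any of them. Of these 41, 12 had no count in any library, 9 had 1 to 3 counts in all and 20 had more. A count of 0 allows up to 0.0385 CPM over the 4 C26 libraries and 0.038 CPM over the 4 control libraries, for counting error only. Of the 41 genes 21 were ADAMs. In a group of 21 ADAMs made up mainly of genes known from the testis and epididymis, 19 stayed under the filter and 8 had no count. Of the MMPs, 9 stayed under it, among them the collagenases Mmp8 and Mmp1b, the matrilysin gene Mmp7 and the membrane-type genes Mmp17, Mmp24 and Mmp25. Of 19 ADAMTS genes 8 did, including Adamts13, whose enzyme cuts von Willebrand factor, and so did Adamtsl1, Adamtsl2 and Timp4.

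A few genes supplied most of the transcripts of each family. Levels between genes are compared as RPKM, which is CPM per kilobase of annotated exon. Timp2 and Timp1 stood highest of all, at 106 ± 21.9 and 67.3 ± 6.14 RPKM in C26 and 91.5 ± 8.27 and 77.7 ± 1.27 RPKM in control (SD, n = 4 each), and made up 57.6% and 42.4% of the TIMP total. Timp3, at 0.145 ± 0.0355 RPKM in C26 and 0.0667 ± 0.0163 RPKM in control, made up 0.0618%. Among MMPs, Mmp14, Mmp2, Mmp9 and Mmp11 held 27.2, 22.8, 22.2 and 19.1% of the family's RPKM. The next MMP in mean level over all libraries was the stromelysin gene Mmp3, at 2.07 ± 0.519 RPKM in C26 and 2.38 ± 0.66 RPKM in control. Adam9 led the ADAMs (34.4%), followed by Adam10 (23.7%), Adam15 (13.6%) and Adam17 (13.1%). Adamts14 and Adamts1 led the ADAMTS family with 42.9 and 25.2% of its RPKM, and Adamtsl4 led the ADAMTS-like genes with 54.2%. The order of neighbours was not the same in the groups, since the mean of Mmp2 lay above that of Mmp14 in C26 (32.5 ± 6.95 against 31.6 ± 3.86 RPKM, within the spread) and below it in control (19.9 ± 2.64 against 31.0 ± 2.86 RPKM).

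**Figure D1:**
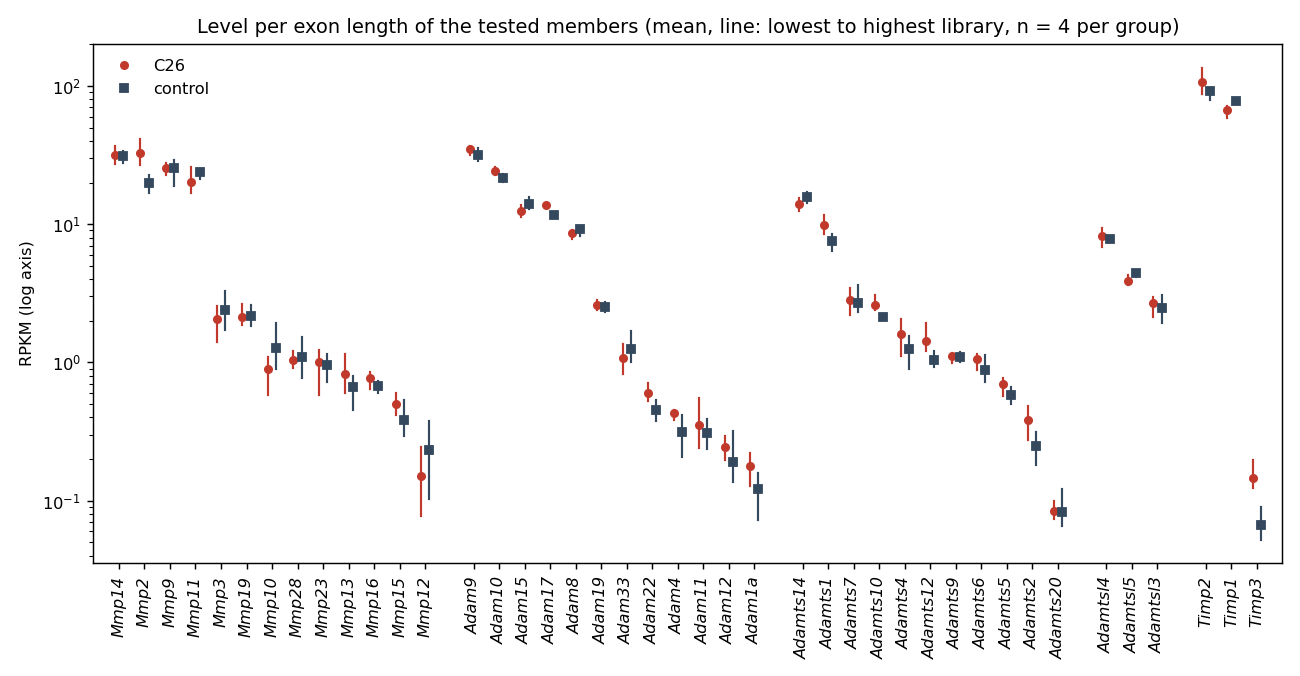
Level per exon length in RPKM (log axis) of the 42 genes that passed the filter, ordered by level within each family. Circles are C26 means and squares control means, and lines run from the lowest to the highest of 4 libraries. Timp2 and Timp1 stand at the top, and 4 MMP genes stand apart from the other 9.

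In the C26 tumours 4 of the 42 tested genes rose and none fell (edgeR, 4.12% of all genes called lower, with 10 of the 42 at an unadjusted p under 0.05). Of all 15755 genes, 4030 were at an unadjusted p under 0.05, a like share. The genes that rose were the gelatinase gene Mmp2, the proteoglycan protease gene Adamts1, the sheddase gene Adam17 and the inhibitor gene Timp3. The share called was 9.52%, against 7.76% of all genes tested, and 3.64% of all genes were called higher. That share counts Timp3, which reached the filter's level in all 4 C26 but 2 of 4 control libraries. Its call and the gap between its groups are therefore no support for a rise. The median log2 fold change of the 42 genes was 0.14, against 0.01 over all 15755, with 29 of the 42 above 0 (69.0%, against 51.0% of all genes) and 13 below. That median was 0.05 after the length and GC correction (-0.02 over all genes), 0.09 without C26 library 4 (0.00), 0.21 by total counts (0.08), 0.22 without C26 libraries 2 and 3 (0.01) and 0.25 with the muscle covariate (0.01). Groups did not overlap for 5 of the 42, 4 with C26 above (Mmp2, Adam17, Adamts10 and Timp3) and 1 with C26 below (Timp1), while 16.1% of all genes had groups that did not overlap, 7.91% with C26 above and 8.14% with C26 below. Each of the 4 calls was lost under some way of leaving out libraries. Mmp2 alone was called without control library 1 or control library 2. Adamts1 and Mmp2 were called without control library 3 or C26 library 3, and Adamts1 and Timp3 without control library 4. Without C26 library 4, Mmp2 was called, with Mmp11 lower and Adamtsl1 higher. Adamtsl1 was under the main filter and entered that fit only through C26 libraries 1 to 3, where it was high. It had 13, 12 and 19 counts there, against 4, 4, 6 and 2 in control libraries 1 to 4, so its call is no support for a rise. Without C26 libraries 2 and 3 together, Adamts1, Adamts12, Mmp2 and Timp2 were called.

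**Figure D2:**
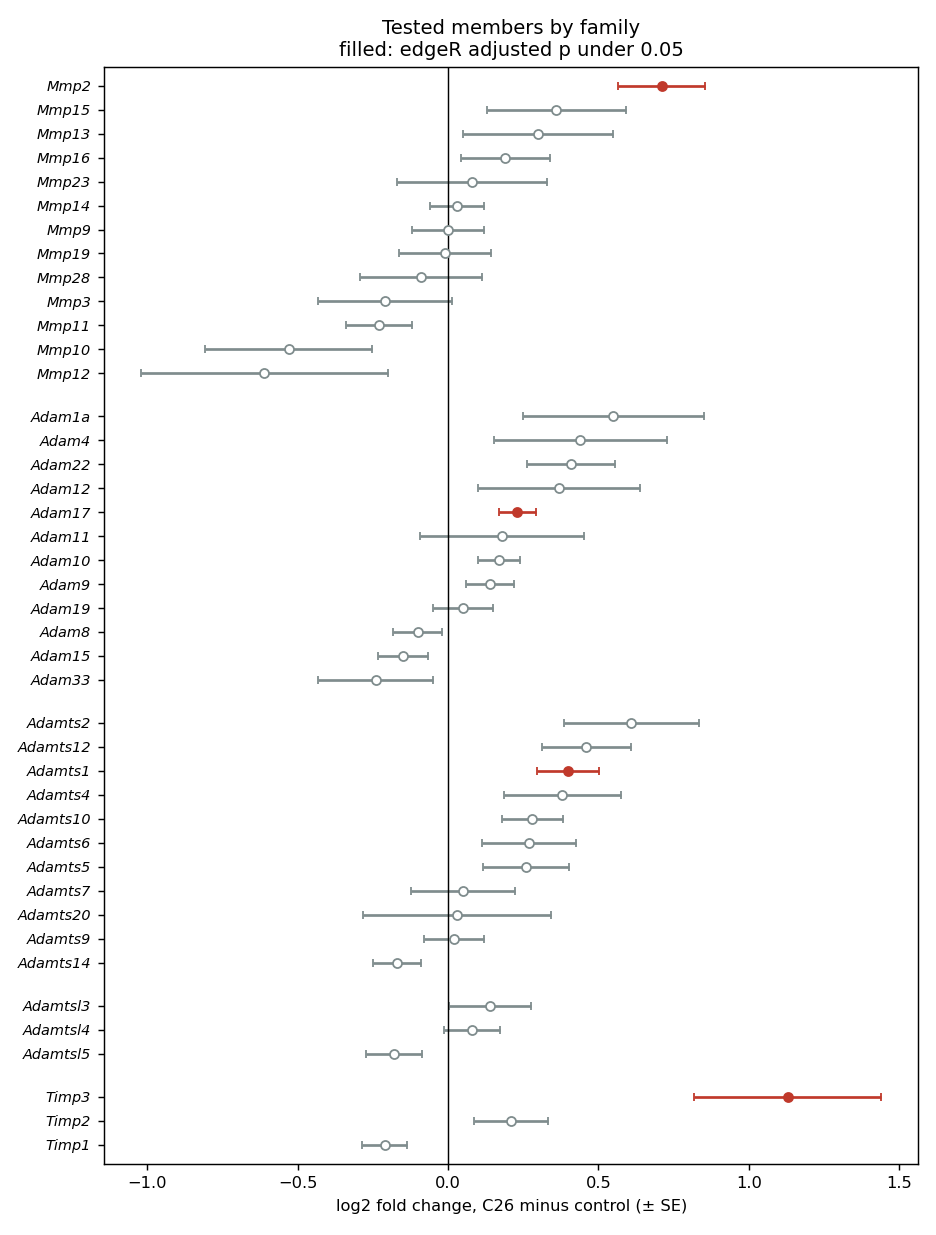
Log2 fold change (C26 minus control) with its SE for the 42 tested genes, by family. Filled points are the 4 genes past an adjusted p of 0.05 in edgeR, at 0.71 for Mmp2, 0.23 for Adam17, 0.40 for Adamts1 and 1.13 for Timp3.

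Mmp2 encodes gelatinase A, which cuts denatured collagen and basement membrane collagen (chromosome 8, 92827291 to 92853420, GRCm38). Its level was 92.3, 90.3, 115 and 140 CPM in C26 libraries 1 to 4, against 71.6, 57.1, 77.1 and 62.8 CPM in control libraries 1 to 4. All C26 libraries lay above all control libraries, and C26 library 4 was the highest. The mean was 110 ± 23.4 CPM in C26 and 67.1 ± 8.9 CPM in control (SD, n = 4 each), a 1.63-fold rise (log2 0.71 ± 0.144 SE, edgeR adjusted p = 0.0172). The rise was also called with skeletal muscle as a covariate (log2 1.05, adjusted p = 0.0192) and after the length and GC correction (log2 0.71, edgeR adjusted p = 0.0274). It narrowly missed the threshold without control library 4 (edgeR adjusted p = 0.0505).

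The 2 genes that work most closely with Mmp2 did not pass. Mmp14 encodes the membrane-type protease that activates the Mmp2 precursor at the cell surface. It stood at 190, 163, 182 and 219 CPM in C26 libraries 1 to 4, against 196, 166, 202 and 175 CPM in control libraries 1 to 4. The groups overlapped fully, with means of 188 ± 23 CPM in C26 and 185 ± 17.1 CPM in control (log2 0.03 ± 0.0898 SE, edgeR adjusted p = 0.87). With the muscle covariate its log2 fold change was 0.31 (edgeR adjusted p = 0.149). Timp2, whose product both bridges Mmp14 to the Mmp2 precursor and inhibits the active enzymes, had 419, 340, 359 and 529 CPM in C26, against 368, 375, 373 and 308 CPM in control libraries 1 to 4. C26 libraries 1 and 4 were above every control library and C26 libraries 2 and 3 were within the control range (log2 0.21 ± 0.124 SE, edgeR adjusted p = 0.316). Without C26 libraries 2 and 3, Timp2 passed (log2 0.41, edgeR adjusted p = 0.0337), and with the muscle covariate it stood at 0.47 on the log2 scale (adjusted p = 0.146).

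Mmp9, gelatinase B, is the other protease of its class and is known from macrophages and neutrophils. It stood at 97.2, 80.8, 85 and 97.7 CPM in C26 libraries 1 to 4, against 89.8, 103, 101 and 66.6 CPM in control libraries 1 to 4. The C26 values all lay inside the control range. The means were 90.2 ± 8.59 CPM in C26 and 90.1 ± 16.7 CPM in control (SD, n = 4 each, log2 -0.00 ± 0.12 SE).

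On chromosome 9, the stromelysin genes Mmp3 and Mmp10 and the other tested MMP genes were low and did not pass. A cluster of MMP genes lies on mouse chromosome 9 (7272514 to 7699585 for the 9 members here), and 4 of them were tested. Their levels lay between 0.557 and 5.88 CPM in every library. Mmp10 (stromelysin 2) averaged 1.53 ± 0.396 CPM in C26 and 2.2 ± 0.774 CPM in control (log2 -0.53 ± 0.277 SE, edgeR adjusted p = 0.24). Mmp12, the macrophage elastase gene, averaged 1.1 ± 0.561 CPM in C26 and 1.68 ± 0.86 CPM in control (log2 -0.61 ± 0.411 SE). The collagenase gene Mmp13 was at 2.19 ± 0.62 CPM in C26 and 1.77 ± 0.39 CPM in control, and Mmp3 at 3.72 ± 0.936 and 4.28 ± 1.19 CPM in the same order. Groups overlapped for all 4. Mmp11 (stromelysin 3), a protease known from fibroblasts around carcinomas, lies on chromosome 10 and was far more abundant. It had 54.7, 47, 51.6 and 71.6 CPM in C26, against 68.7, 58.8, 68.9 and 66.4 CPM in control libraries 1 to 4. Only C26 library 4 lay above the control range (log2 -0.23 ± 0.11 SE, edgeR adjusted p = 0.213), and the fall was called when that library was left out. The membrane-type genes Mmp15 and Mmp16 had log2 fold changes of 0.36 ± 0.231 and 0.19 ± 0.148 (SE), and Mmp19, Mmp23 and Mmp28 lay between -0.09 and 0.08 on the log2 scale.

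Of the 3 tested TIMP genes 1 passed (33.3%, against 7.76% of all genes). Timp3, whose product binds to the matrix and inhibits ADAM17 and several ADAMTS proteases as well as MMPs, rose at a very low level (chromosome 10, 86300372 to 86349506). It had 1.0, 1.61, 1.09 and 1.01 CPM in C26 libraries 1 to 4, against 0.425, 0.476, 0.544 and 0.727 CPM in control libraries 1 to 4. These levels rest on 19, 31, 24 and 20 counts in C26 and on 9, 9, 11 and 12 counts in control. The groups did not overlap, and the log2 fold change was 1.13 ± 0.311 (SE, a 2.18-fold rise, edgeR adjusted p = 0.0373). The call ended when any of control libraries 1 to 3 or C26 libraries 2 to 4 was dropped (highest edgeR adjusted p 0.11), when C26 libraries 2 and 3 were dropped together (0.196), after the length and GC correction (0.0744) and with the muscle covariate (log2 0.74, adjusted p = 0.466). All 4 C26 libraries but 2 of 4 control libraries reached the filter's level. Timp3 thus entered the test mainly through the group in which it was higher, and its call is no support for a rise. It shares 1733 of its 8144 exon bases with Syn3 on the opposite strand, which averaged 0.222 CPM in C26 and 0.154 CPM in control, and the strand setting of the counting is not given.

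Timp1, a secreted inhibitor that is induced in wounds and tumours, was lower in every C26 library without passing the test. It stood at 64.1, 63.7, 58.9 and 52.4 CPM in C26 libraries 1 to 4, against 70.4, 68.2, 69.5 and 68 CPM in control libraries 1 to 4. Every C26 library was below every control library, but Timp1 missed the threshold (log2 -0.21 ± 0.0749 SE, edgeR adjusted p = 0.0968) and passed in limma-voom (adjusted p = 0.0469). Timp4 had 3 counts, all in C26 library 2.

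**Figure D3:**
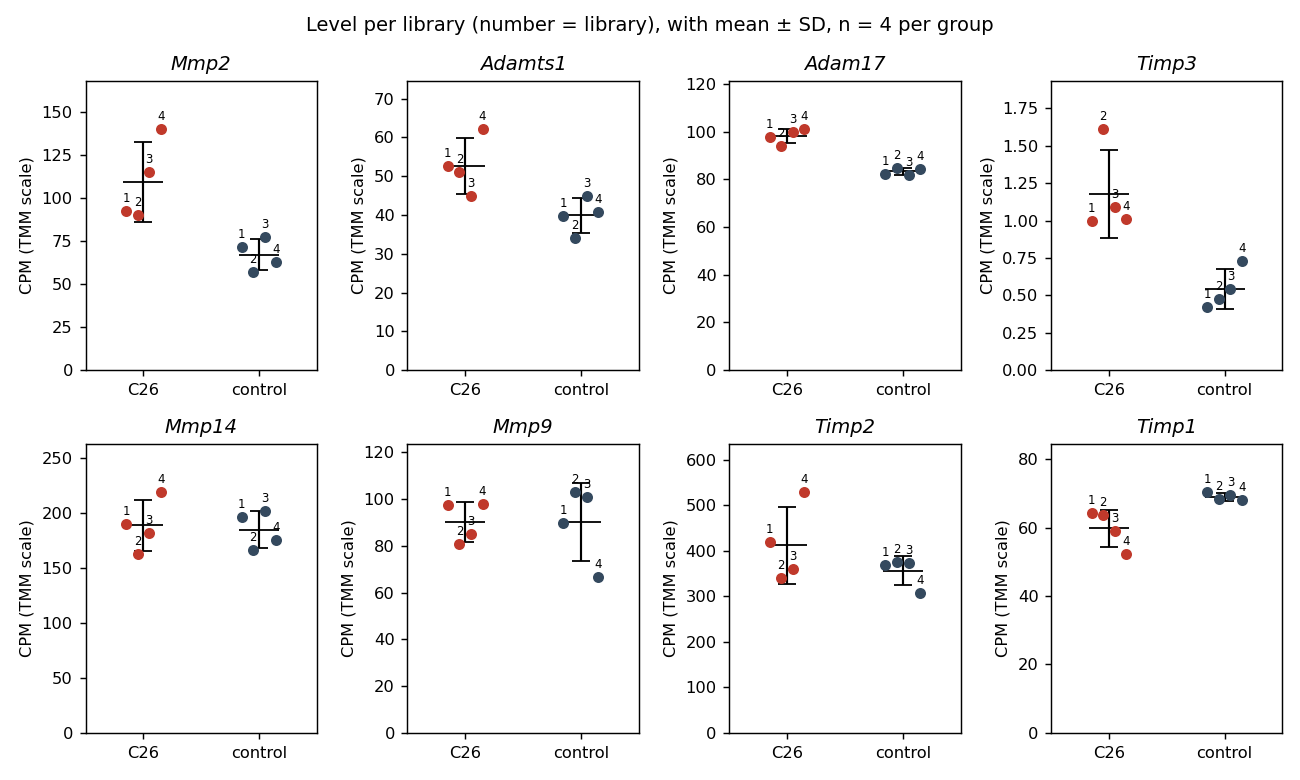
CPM per library for the 4 genes that rose (top row) and for Mmp14, Mmp9, Timp2 and Timp1 (bottom row), with C26 at the left and control at the right of each panel. Points are libraries with their numbers, and bars are the mean ± SD (n = 4 per group). Groups are apart for Mmp2, Adam17, Timp3 and Timp1 and overlap in the other panels.

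Adam17 encodes the sheddase that releases tumour necrosis factor and ligands of the epidermal growth factor receptor (chromosome 12, 21323509 to 21373632). It had 97.7, 94.1, 100 and 101 CPM in C26 libraries 1 to 4, against 82.4, 84.6, 82 and 84.5 CPM in control libraries 1 to 4. The groups were tight and apart, at means of 98.1 ± 2.93 CPM in C26 and 83.4 ± 1.38 CPM in control (SD, n = 4 each). The rise was small, at 1.18-fold (log2 0.23 ± 0.0619 SE, edgeR adjusted p = 0.0312). The call ended when any control library, C26 library 3 or C26 library 4 was dropped (highest edgeR adjusted p 0.0971), when C26 libraries 2 and 3 were dropped together (0.061), with the muscle covariate (log2 0.26, adjusted p = 0.175) and after the length and GC correction (log2 0.13, edgeR adjusted p = 0.238). Adam17 shares 311 of 7154 exon bases with Iah1 on the opposite strand, which stood lower in C26 at 36.1 CPM, against 43.5 CPM in control.

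Adam10, the closest relative of Adam17 and the main sheddase of Notch receptors and cadherins, had 128, 120, 112 and 118 CPM in C26, against 114, 107, 100 and 103 CPM in control libraries 1 to 4. C26 library 3 fell inside the control range (log2 0.17 ± 0.0685 SE, edgeR adjusted p = 0.13), and Adam10 passed only with libraries scaled by total counts (adjusted p = 0.0353). Adam9, also a sheddase, had 131, 151, 140 and 151 CPM in C26, against 131, 126, 118 and 147 CPM in control libraries 1 to 4 (log2 0.14 ± 0.0784 SE, edgeR adjusted p = 0.28). Adam15 had 84.7, 69.3, 77.4 and 75 CPM in C26, against 85.7, 78.8, 96.8 and 79.7 CPM in control libraries 1 to 4. The groups overlapped for Adam9 and for Adam15 (log2 -0.15 ± 0.0824 SE). Among the less abundant catalytic members, Adam8, a protease of leukocytes, averaged 39.9 ± 2.74 CPM in C26 and 42.6 ± 3.12 CPM in control. Adam12, Adam19 and Adam33 had log2 fold changes of 0.37, 0.05 and -0.24 and did not pass. Adam22, a receptor without protease activity, stood at 8.68 ± 1.12 CPM in C26 and 6.53 ± 0.946 CPM in control (log2 0.41, edgeR adjusted p = 0.0933). Adam1a, at 1.34 ± 0.334 CPM in C26 and 0.907 ± 0.278 CPM in control, shares 4779 of 7508 exon bases with Gm42878 on the same strand. It also shares 1805 with Mapkapk5 on that strand, which averaged 27 CPM in C26 and 25.9 CPM in control. The reads of Adam1a are thus uncertain. Reads of Adam15 and its antisense transcript 4731419I09Rik (1263 of 6145 exon bases shared), and of Mmp19 and Tmem198b (789 of 3533), cannot be told apart either if strand was not used.

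In the ADAMTS family 10 of 11 tested genes had a log2 fold change above 0, at a median of 0.27 (90.9% above 0, against 51.0% of all genes), and 1 passed (9.09%, against 7.76% of all genes). Adamts9 (0.02), Adamts20 (0.03) and Adamts7 (0.05) were above 0 by little, and Adamts7 changed sign in 5 of 18 alternatives. Adamts1 encodes a secreted protease that cuts versican and aggrecan (chromosome 16, 85793827 to 85803113). It had 52.5, 51.1, 44.9 and 62.1 CPM in C26 libraries 1 to 4, against 39.7, 34, 45 and 40.8 CPM in control libraries 1 to 4. C26 library 3 lay just below control library 3, and the other 3 C26 libraries were above every control library. The means were 52.7 ± 7.14 CPM in C26 and 39.9 ± 4.53 CPM in control, a 1.32-fold rise (log2 0.40 ± 0.103 SE, edgeR adjusted p = 0.0276). The call ended when control library 1, control library 2 or C26 library 4 was dropped (highest edgeR adjusted p 0.084) and after the length and GC correction (log2 0.30, adjusted p = 0.104). With the muscle covariate Adamts1 was called (log2 0.65, edgeR adjusted p = 0.0367).

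Further ADAMTS genes came near the threshold. Adamts12 had 15.2, 13.5, 13.3 and 20.9 CPM in C26, against 13.3, 10.2, 11.9 and 10.1 CPM in control libraries 1 to 4 (log2 0.46 ± 0.149 SE, edgeR adjusted p = 0.0667). Adamts12 was called in DESeq2, with the muscle covariate, without the filter, by total counts and without C26 libraries 2 and 3. Adamts10, whose product binds fibrillin microfibrils, had 25.3, 20, 19.7 and 21 CPM in C26, against 18.5, 18.3, 16.7 and 17.2 CPM in control libraries 1 to 4. Its groups did not overlap (log2 0.28 ± 0.101 SE, edgeR adjusted p = 0.093). Adamts2, which removes the amino-terminal propeptide of fibrillar procollagens, averaged 3.55 ± 0.797 CPM in C26 and 2.31 ± 0.56 CPM in control (log2 0.61 ± 0.223 SE, edgeR adjusted p = 0.102).

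Adamts14, a relative with the same procollagen activity and the most abundant ADAMTS, was the member below 0. It had 71.4, 80.6, 65.2 and 73.1 CPM in C26, against 82.6, 89.1, 73.9 and 80.6 CPM in control libraries 1 to 4, and the groups overlapped (log2 -0.17 ± 0.0797 SE, edgeR adjusted p = 0.196). The aggrecanase genes Adamts4 and Adamts5 had log2 fold changes of 0.38 ± 0.194 and 0.26 ± 0.144 (SE) and did not pass. Adamts7, which cuts cartilage oligomeric matrix protein, had 20.2, 14.7, 13.9 and 21.8 CPM in C26, against 15.8, 14.6, 22.8 and 14.7 CPM in control libraries 1 to 4, with overlapping groups. ADAMTS-like proteins have no protease domain. Adamtsl4, a fibrillin-binding glycoprotein gene, had 37.4, 33.2, 28.8 and 39.5 CPM in C26, against 32.3, 32.3, 32.9 and 33.8 CPM in control libraries 1 to 4. Adamtsl5 had 17.1, 17.2, 19 and 20.4 CPM in C26, against 21.3, 20.7, 22 and 19.7 CPM in control libraries 1 to 4. Adamtsl3 had 16.6, 22.8, 21.5 and 23 CPM in C26, against 18.4, 19.3, 14.9 and 23.8 CPM in control libraries 1 to 4. None of these 3 passed in edgeR, DESeq2 or limma-voom. At an unadjusted p under 0.05 there were 0 in edgeR, 0 in DESeq2 and 1 in limma-voom (Adamtsl5), and the groups overlapped for all 3.

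Promoters are shown for 3 of the genes that rose and for 3 inducible MMP genes of chromosome 9 that did not pass, because their letters differ. Each is the 250 bases before the RefSeq start site nearest to the GENCODE 5′ end (GRCm38.p6), and 28 of the 42 tested genes had an entry. Capitals mark the GC box (GGGCGG or CCGCCC), the AP-1 motif (TGANTCA, the same on both strands), the TATA box (TATAAA or TTTATA) and the ETS core (CCGGAAG or CTTCCGG), searched on both strands.
Adam17 promoter, chr12:21373633-21373882, minus strand: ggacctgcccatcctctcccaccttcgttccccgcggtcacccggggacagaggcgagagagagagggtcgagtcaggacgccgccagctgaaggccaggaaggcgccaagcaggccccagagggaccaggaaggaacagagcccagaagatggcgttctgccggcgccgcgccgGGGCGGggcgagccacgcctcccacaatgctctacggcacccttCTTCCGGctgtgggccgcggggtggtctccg
Adamts1 promoter, chr16:85803114-85803363, minus strand: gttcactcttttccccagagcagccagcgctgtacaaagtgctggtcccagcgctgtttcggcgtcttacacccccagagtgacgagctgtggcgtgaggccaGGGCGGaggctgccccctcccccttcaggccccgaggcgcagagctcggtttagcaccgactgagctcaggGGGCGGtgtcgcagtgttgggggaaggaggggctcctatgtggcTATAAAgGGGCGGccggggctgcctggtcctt
Timp3 promoter, chr10:86300162-86300411, plus strand: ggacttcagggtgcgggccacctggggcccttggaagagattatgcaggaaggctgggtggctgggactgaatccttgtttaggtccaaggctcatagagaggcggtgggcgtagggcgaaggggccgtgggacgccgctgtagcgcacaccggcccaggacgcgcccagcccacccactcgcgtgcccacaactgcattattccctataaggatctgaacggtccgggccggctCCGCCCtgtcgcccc
Mmp3 promoter, chr9:7445572-7445821, plus strand: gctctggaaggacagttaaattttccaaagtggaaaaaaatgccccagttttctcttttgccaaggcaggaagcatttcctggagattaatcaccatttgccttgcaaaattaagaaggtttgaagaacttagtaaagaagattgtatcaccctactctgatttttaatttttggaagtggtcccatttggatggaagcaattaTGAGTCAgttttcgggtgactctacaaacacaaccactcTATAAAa
Mmp10 promoter, chr9:7502092-7502341, plus strand: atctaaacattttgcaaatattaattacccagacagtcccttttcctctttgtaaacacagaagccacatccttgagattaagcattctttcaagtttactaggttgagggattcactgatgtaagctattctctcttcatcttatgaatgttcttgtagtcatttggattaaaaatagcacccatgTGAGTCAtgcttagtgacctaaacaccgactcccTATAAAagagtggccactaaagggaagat
Mmp13 promoter, chr9:7272264-7272513, plus strand: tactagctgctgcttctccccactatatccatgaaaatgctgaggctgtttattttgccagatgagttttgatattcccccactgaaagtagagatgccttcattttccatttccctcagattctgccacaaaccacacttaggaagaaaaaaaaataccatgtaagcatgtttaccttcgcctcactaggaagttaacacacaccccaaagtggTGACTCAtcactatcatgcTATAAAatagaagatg
The GC box stood in all 3 promoters of genes that rose, and in none of the 3 from chromosome 9. These last each held an AP-1 motif, beginning 46, 63 and 35 bases upstream of the start site in Mmp3, Mmp10 and Mmp13. Each also held the letters of a TATA box, beginning 7, 29 and 16 bases upstream in the same order. Adamts1 also held a TATA box, 32 bases upstream, and Adam17 an ETS core, 31 bases upstream. The printed promoters were picked because their letters differ, so the contrast between them was fixed by the choice. Mmp14, Mmp11, Adam15, Adamts14, Timp1 and Timp2, which did not pass, held a GC box as well. Of the 28 promoters 19 (67.9%) held a GC box, against 32.9% of 27025 promoters of all genes. An AP-1 motif stood in 4 (14.3%), in the 3 printed here and Adam19, against 6.87% of all. The TATA box was found in 14.3% and 13.0%, and the ETS core in 7.14% and 7.05%, of the 28 and of all promoters. These shares are not like for like. The 28 are genes that passed the filter, while the 27025 include genes that did not. For genes outside the families the first start site listed was used, not the one nearest to the GENCODE 5′ end. The matches describe letters in these windows and show nothing about binding.

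Ratios between 2 genes within a library do not depend on how libraries are scaled, and 8 were computed for proteases and the partners or inhibitors named above. The pairs were chosen after the values were seen, so no test is given. Mmp2 and Timp3 lay above and Timp1 below control in every C26 library. The ratios of Mmp2 to Timp1 and of Timp3 to Timp1 therefore had to be apart, and several ratios share Mmp2. How often ratios of other gene pairs are apart was not computed. The log2 ratio of Mmp2 to Mmp14 was -1.04, -0.85, -0.66 and -0.64 in C26 libraries 1 to 4, against -1.46, -1.54, -1.39 and -1.48 in control libraries 1 to 4. All C26 libraries were above all control libraries, with means of -0.80 ± 0.187 and -1.46 ± 0.0622 (SD, n = 4 each). The mean log2 ratio of Mmp2 to Timp2 was -1.91 ± 0.223 in C26 and -2.41 ± 0.206 in control, that of Mmp2 to Timp1 0.85 ± 0.434 in C26 and -0.05 ± 0.175 in control, and that of Mmp2 to Mmp9 0.26 ± 0.273 in C26 and -0.41 ± 0.321 in control. None of these 3 ratios overlapped between groups. Adam17 to Timp3 was lower in every C26 library, at 6.41 ± 0.361 in C26 and 7.29 ± 0.326 in control. Timp3 to Timp1 was higher in every C26 library, at -5.69 ± 0.285 and -7.02 ± 0.352 in control. The ratios of Adam17 to Adam10 (-0.28 ± 0.106 in C26 and -0.35 ± 0.0828 in control) and of Adamts1 to Timp3 (5.50 ± 0.416 in C26 and 6.22 ± 0.318 in control) overlapped.

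**Figure D4:**
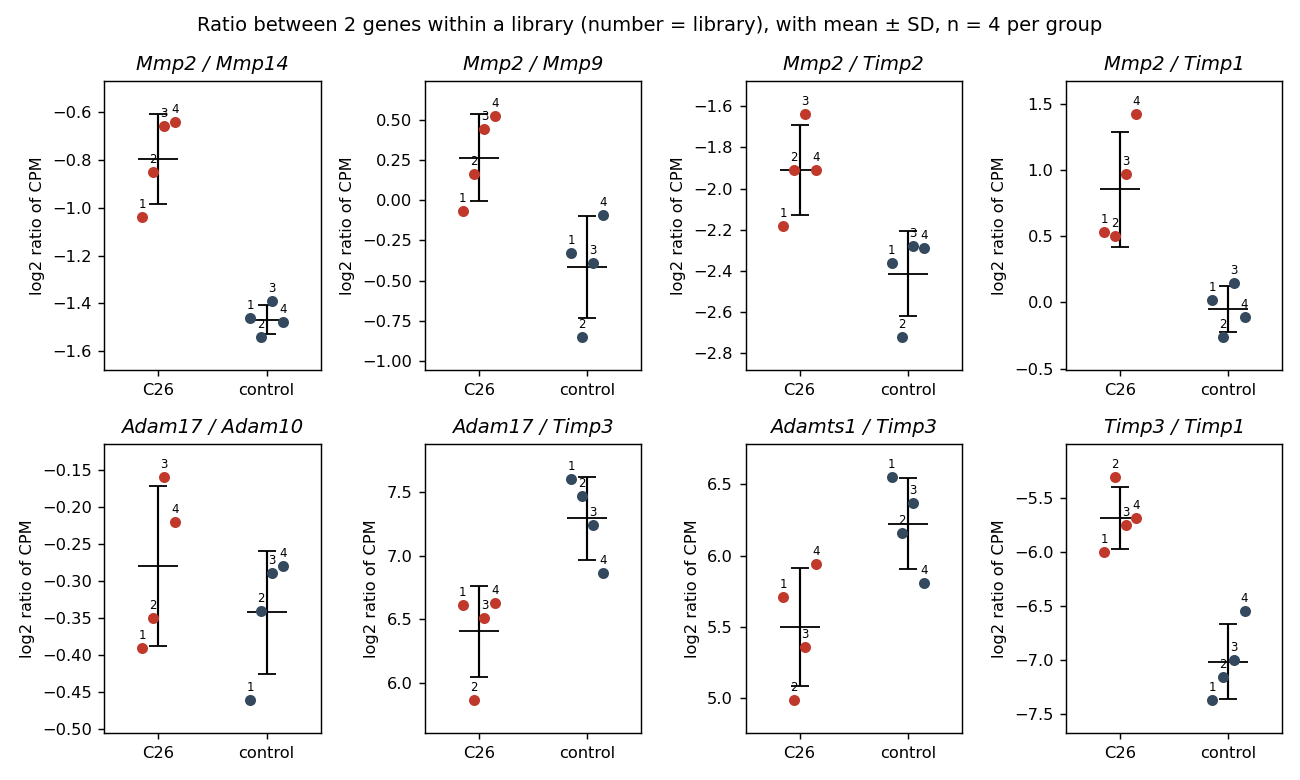
Log2 ratio of CPM between 2 genes in each library, with C26 at the left and control at the right of each panel. Points are libraries with their numbers and bars are the mean ± SD (n = 4 per group). The groups overlap for Adam17 to Adam10 and Adamts1 to Timp3 and are apart in the other panels. The pairs were chosen after the values were seen.

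C26 library 4 was the highest of the C26 libraries for 17 of the 42 tested genes (40.5%), compared with 24.5% of all genes tested. C26 library 3 was the highest for 5 (11.9%, compared with 20.0% of all genes). Mmp2, Mmp11, Mmp14, Mmp19, Timp2, Adam1a, Adam17, Adamts1, Adamts12 and Adamtsl4 each had their highest value of all 8 libraries in C26 library 4.

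Genes outside the families that act on the same pathways were followed as lists, for which no set test was made. Of 28 activators, partners and other inhibitors of MMPs 17 were tested, 3 rose and 1 fell (23.5% called, against 7.76% of all genes, median log2 fold change 0.00). Serpine2, an inhibitor of plasminogen activators and thrombin, averaged 8.0 ± 3.32 CPM in C26 and 3.41 ± 0.491 CPM in control (log2 1.23, edgeR adjusted p = 0.0138). Plat, tissue plasminogen activator, averaged 71.2 ± 6.4 CPM in C26 and 56.2 ± 4.36 CPM in control (log2 0.34, edgeR adjusted p = 0.0206). Bsg, which encodes the MMP inducer basigin, fell to 545 ± 28.1 CPM in C26, against 654 ± 37.7 CPM in control (log2 -0.26, edgeR adjusted p = 0.0313). The procollagen protease gene Bmp1, the fourth call, had an edgeR adjusted p = 0.0449. The list had 1 call, Serpine2, when control library 1, control library 2 or C26 library 4 was left out, and 2 calls, Plat and Serpine2, without control library 3. Without C26 libraries 2 and 3 Bsg was lost and Plaur was called lower, beside Bmp1, Plat and Serpine2. With the muscle covariate its call was Plaur, lower, and after the length and GC correction Plat and Serpine2 were called.

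Of 17 tested partners and regulators of ADAMs 1 rose (5.88%, against 7.76% of all genes), the beta-secretase gene Bace1, at 22.2 ± 2.25 CPM in C26 and 16.8 ± 2.02 CPM in control (log2 0.40, edgeR adjusted p = 0.034). The call ended when control library 2, control library 3 or C26 library 1, 3 or 4 was dropped and after the length and GC correction (0 of 17 called, 3 to 4 at an unadjusted p under 0.05). Rhbdf1 and Rhbdf2, which encode the iRhom proteins that carry ADAM17 to the cell surface, had log2 fold changes of 0.04 each and did not pass. Among 14 AP-1 and ETS factors, several of which bind MMP promoters, 1 fell (7.14%, against 7.76% of all genes). Etv4 averaged 76.9 ± 10.2 CPM in C26 and 102 ± 7.11 CPM in control (log2 -0.41, edgeR adjusted p = 0.0129), and was called without each library in turn, but not after the length and GC correction (0 of 14 called, 2 at an unadjusted p under 0.05). Without C26 library 3, Junb fell as well.

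Of 21 tested genes for matrix proteins that these enzymes cut, 7 rose and none fell (edgeR, 12 at an unadjusted p under 0.05), with a median log2 fold change of 0.36 and 33.3% called, against 7.76% of all genes. Col5a1, a fibrillar collagen chain, averaged 604 ± 69 CPM in C26 and 420 ± 42.8 CPM in control (log2 0.52, edgeR adjusted p = 0.00419). Thbs2, a matricellular protein gene, averaged 313 ± 40 CPM in C26 and 222 ± 27 CPM in control, and Sparc 1411 ± 111 CPM in C26 and 1102 ± 78.9 CPM in control. Vcan, the versican that ADAMTS1 cuts, averaged 197 ± 31.5 CPM in C26 and 147 ± 7.4 CPM in control (log2 0.42, edgeR adjusted p = 0.0158). Col4a1, Lamc1 and Nid1, chains and linkers of basement membranes, were the other calls. With the muscle covariate 3 were called (Col4a1, Col5a1 and Thbs2), and after the length and GC correction 3 (Col5a1, Sparc and Thbs2). Without C26 libraries 2 and 3 Col3a1 was called beside the other 7. Col1a1, Col1a2, Col3a1 and Dcn stand both in this list and in the fibroblast markers.

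Markers of other cell types were summed in each library, and in bulk tumour RNA more cells of a type and more RNA per cell cannot be told apart. The 12 fibroblast markers summed to 7877, 5738, 5643 and 7754 CPM in C26 libraries 1 to 4 and to 4775, 4482, 5155 and 3355 CPM in control libraries 1 to 4, without overlap. Of the 12, 1 (Postn) passed (8.33%, against 7.76% of all genes, a like share). Col1a1, Col1a2 and Col3a1, none of which passed, made up 85.4% of the C26 sum and 82.1% of the control sum. The other 9 markers summed to 1118, 868, 784 and 1183 CPM in C26 libraries 1 to 4 and to 813, 745, 948 and 671 CPM in control libraries 1 to 4, and these overlapped. The 12 endothelial markers summed to 143 to 181 CPM in C26 and 108 to 166 CPM in control, which overlapped. Of 11 tested, 2 (Ptprb and Tek) were past the threshold (18.2%, against 7.76% of all genes). The 10 pericyte and smooth muscle markers summed to 84.4 to 129 CPM in C26 and 59.9 to 95.8 CPM in control, with Rgs5 called (10%, against 7.76% of all genes). Without Des, which skeletal muscle also expresses and which had 7.87, 48.3, 21.4 and 10.3 CPM in C26, against 2.5, 6.34, 4.99 and 1.64 CPM in control libraries 1 to 4, they summed to 74.1 to 90 CPM in C26 and 55.3 to 90.8 CPM in control. Macrophage markers summed to 1043 to 1555 CPM in C26 and 1160 to 1716 CPM in control, and none of 12 passed. At an unadjusted p under 0.05 in edgeR there were 5 of the 12, against 4030 of all 15755 genes. These 5 were Adgre1, C1qa, C1qb and C1qc, lower in C26, and Mertk, higher. Of the 12 macrophage markers 11 had a log2 fold change below 0 and 1 above, at a median of -0.17. Of all 15755 genes 7718 were below 0 and 8037 above. Fibroblast markers were above 0 in 11 of 12 (median 0.28), with Thy1 below (-0.10). Endothelial markers were above 0 in 10 of 11 tested (median 0.42), and pericyte and smooth muscle markers in 8 of 10 (median 0.31). Neutrophil markers summed to 5.93 to 10.3 CPM in C26 and 7.51 to 12 CPM in control, with Ly6g at 0 counts. T and NK cell markers summed to 11.3 to 16.4 CPM in C26 and 9.76 to 18.8 CPM in control, and mast cell markers to 5.54 to 7.57 CPM in C26 and 4.73 to 8.54 CPM in control, with Fcer1a at 0 counts. The part of these cell types in the changes of Mmp2, Adamts1, Adam17 and Timp3 was not tested.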

How the data were processed

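Polyadenylated RNA from 8 tumours was sequenced on an Illumina instrument, per the labels. The authors deposited whole-number raw counts per Ensembl gene. The submitters' processing notes name mm10 and the programs featureCounts (2.0.1), HISAT2 (2.2.1) and Trim Galore (0.6.7), but the series design text names Cutadapt, STAR and RSEM, and the values do not settle this. For the counting, the gene annotation, strand use and treatment of multi-mapping reads were not given in the sources used here. GENCODE M21 (GRCm38, the assembly mm10 names) gave symbols to 52073 of 56691 identifiers, and the others took 0.769% of counts.

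Genes passing filterByExpr of edgeR 4.0.16 in R 4.3.3 (15755) received TMM factors and entered its robust quasi-likelihood test, group as the sole term, two-sided, with Benjamini-Hochberg adjustment over all of them and a threshold of 0.05. The SE was derived from the log2 fold change and the F statistic. CPM are on the TMM scale, and exon length is the union of a gene's annotated exons. Libraries differed from each other by more than sampling noise (chi-square per degree of freedom at least 6.21).

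The genes and lists were chosen with earlier results of these data known. By rule, values in every library were given for each gene past the threshold, all Timp genes, the 3 members highest in RPKM in each other family, and Mmp2, Mmp9, Mmp14, Adam10 and Adam17. Mmp11, Adamts10 and Adamts12 were given as well after their values were seen. From each partner list up to 3 genes past the threshold with the smallest p were to be named, and Bmp1, Vcan, Rhbdf1, Rhbdf2 and Junb were added after their values were seen. Alternatives used DESeq2 1.42.0, limma-voom (limma 3.58.1), RLE or no factors, other filters, the replicate number, left-out libraries, the mean level of the muscle list, and splines with 4 degrees of freedom for transcript length and GC content. Marker sums without 3 collagens or Des were added after the data were seen.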

Additional observations from a re-analysis of the deposited data

Results flagged for a closer look

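Among 32 sets of 4 libraries in which 2 or more were above 0, 3 had a library set apart from the others by more than Dixon's critical value, and chance gives about 1 in 20. Timp2 stood at 308 CPM in control library 4, against 368 to 375 CPM in the other control libraries. Timp3 stood at 1.61 CPM in C26 library 2, against 1.0 to 1.09 CPM in the other C26 libraries. Adamts7 stood at 22.8 CPM in control library 3, against 14.6 to 15.8 CPM in the other control libraries. Timp4 was at 0.156 CPM in C26 library 2 and at 0 in the other C26 libraries, a gap that any reads in a lone library would give, so it is not counted with these.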

How the results depend on the processing

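The sources do not say that equal library numbers mark a shared animal or batch, and deviations from the group means correlated at -0.0234, 0.135, -0.0195 and 0.0934 for numbers 1 to 4, so the replicate block is given here alone. With it 2 of the 42 genes were called (Adamts1 and Mmp2), 1184 of all genes, 11 matrix substrates and 2 AP-1 and ETS factors. Scaled by total counts, 1949 of all genes, 8 of the 42, 12 substrates and 2 ADAM partners were called. Without a filter on low counts the number was 1948 of all genes and 2 AP-1 and ETS factors. DESeq2 called 11 substrates and limma-voom 2 ADAM partners. The muscle covariate gave 122 of all genes, 3 substrates and 1 MMP partner. Length and GC offsets gave 629 of all genes, 1 of the 42 (Mmp2), 2 MMP partners, 0 ADAM partners, 3 substrates and 0 AP-1 and ETS factors (4 ADAM partners and 2 of these factors at an unadjusted p under 0.05 in edgeR). When each library was left out in turn, 643 to 1457 of all genes and 1 to 4 of the 42 were called, with 1 to 4 MMP partners, 0 to 1 ADAM partners, 6 to 9 substrates and 1 to 2 AP-1 and ETS factors. Genes near 0 changed sign. Mmp9 on the log2 scale was at 0.07 by total counts, 0.00 without a filter, 0.01 with the replicate block, 0.11 without C26 libraries 2 and 3, 0.05 with the muscle covariate, and 0.03 to 0.07 in the 4 settings without 1 library that reversed it, among -0.12 to 0.07 over all 8. Adamts7 was at -0.02 and Mmp14 at -0.00 in limma-voom, and with each library left out in turn they ran from -0.07 to 0.22 and from -0.05 to 0.09. Adamtsl3 was at -0.01 with length and GC offsets. The cause was not tested. Timp3 rests on 135 counts over 8 libraries, and among the tested genes Adamts20 (116), Adam4 (145), Adam1a (176) and Mmp12 (221) rest on like numbers.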
